A study of Mus musculus with 7 samples.

Results

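The genes described here encode 10 nuclear receptors whose ligand-binding domains are known to contact Med1: Vdr, Rara, Rxra, Rxrb, Thra, Nr3c1, Esr1, Ppard, Nr1h2 and Nr1h3. They were taken by name from the 46959 genes of the deposited table, and all 10 passed the filter on low reads that left 18062 tested genes. RNA was sequenced from mouse spleen B cells cultured for 4 days with interleukin 4 (IL-4) at 20 ng/mL and the bacterial activator lipopolysaccharide (LPS) at 1 µg/mL. The mutant libraries carry the genotype label cKO MED1 (n = 4) and the others the label wildtype (WT, n = 3). No other allele or agent is named for either genotype. The promoter that drives the recombinase, the strain, the age of the mice and whether libraries came from separate animals are not given in the sources used here. The p-values therefore measure only how these samples vary, which may be technical.

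Nuclear receptors are transcription factors that change shape when a small lipophilic ligand binds. The active form exposes a groove that holds short leucine-rich LXXLL motifs, which Med1 and the p160 coactivators carry. Med1 is the subunit of the Mediator complex through which many liganded receptors reach RNA polymerase II. Rxra and Rxrb encode retinoid X receptors, the shared partners with which the receptors for retinoic acid (Rara), vitamin D (Vdr), thyroid hormone (Thra), fatty acids (Ppard) and oxysterols (Nr1h2 and Nr1h3, also called LXR beta and LXR alpha) bind DNA as heterodimers. The glucocorticoid receptor (Nr3c1) and the estrogen receptor (Esr1) bind as homodimers and wait for ligand in complexes with heat shock protein chaperones. In B cells, retinoic acid, vitamin D, glucocorticoids and estrogen are known to alter activation, switching and survival.

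Libraries held 31937372 to 61149274 reads, and the shallowest WT library still held more than the deepest cKO MED1 library. Reads are given below as normalised reads, scaled to a common library of 48019763 reads with TMM factors, and fold changes stand as cKO MED1 minus WT on the log2(normalised reads + 1) scale, on which a gene with few reads shows less than its true change. Med1 itself had 2585, 2172, 2249 and 2436 normalised reads in cKO MED1 replicates 1 to 4, against 4755, 4173 and 4210.1 in WT replicates 1 to 3. It therefore remained at 53.9% of the WT level in the mutant cultures (log2 fold change -0.89, SE 0.09, limma's adjusted p = 0.000174), and values of a whole gene do not separate a deleted exon from the rest. Summed reads of the 7 B cell markers were 272959 to 318894 in cKO MED1 and 335305 to 346828 in WT, and 5 of the 7 fell. All 7 belong to the third of genes with the highest means, of which 27.6% were called lower. Sex differed between the genotypes: Ddx3y, a Y-linked gene, had at most 4.07 reads in cKO MED1 replicates 1, 2 and 4, against 4470 in cKO MED1 replicate 3 and 4496 to 4895 in the WT libraries. Genes of neurons and muscle also differed, with a median over 25 such genes of 1.54, 2.17, 3.89 and 6.37 normalised reads per exonic kb in cKO MED1 replicates 1 to 4 and 0.381, 1.28 and 1.11 in WT replicates 1 to 3. Of that list, 8 genes rose and 2 fell among 21 tested, 15 of which lay in the third of genes with the lowest means, where 22% of genes were called higher. Among markers of other cells, summed reads in cKO MED1 and in WT were 59832 to 82538 and 81730 to 124104 for 5 plasma cell genes, 1006 to 1254 and 1237 to 1652 for 6 T cell genes, 3495 to 4625 and 2383 to 3333 for 5 dendritic cell genes, and 1065 to 1279 and 1406 to 1657 for 7 stromal and endothelial genes. Within the plasma cell list Jchain (means of 16045 and 45865) and Sdc1 fell, while Prdm1 (4382 and 2713) and Irf4 (21850 and 16670) rose. Flt3 made up most of the dendritic cell sum (3360 and 2163) and rose. Lck made up most of the T cell sum (means of 1036 and 1453) and fell, while the median log2 fold change of the 5 tested T cell genes was 0.52. Pecam1 made up most of the stromal and endothelial sum (980 and 1429) and fell, while the median of that list was 1.10 and Pdgfra rose. The third of genes with the lowest means held 4 of those 5 T cell genes and 6 of the 7 stromal and endothelial genes. Pdgfra passed the filter on low reads through the mutant libraries, so its rise is a description. Summed reads of NK, neutrophil, mast cell and erythroid genes were at most 473 in any library. At these low levels the erythroid gene Hba-a1 rose (means of 118 in cKO MED1 and 17.0 in WT) and Hbb-bt fell (31.2 and 84.6). Neutrophil sums were 19.0 to 69.5 in cKO MED1 and 2.75 to 10.6 in WT. In bulk RNA, fewer cells of a type and less RNA per cell cannot be told apart.

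By limma at an adjusted p of 0.05, 2 of the 10 receptor genes rose in cKO MED1 (Ppard and Esr1), 1 fell (Rxrb) and 7 did not pass. Over all tested genes 28% were called, 13.4% higher and 14.6% lower, so the 3 of 10 receptor genes called stood close to the share of the whole table. With the authors' size factors 37.3% of all calls were higher in cKO MED1, and with total reads 31.8%, against 47.8% with TMM, and the median of all tested genes moved to -0.10 and -0.20 on the log2 scale. The median log2 fold change was 0.15 over the 10 receptors and 0.04 over all tested genes. Groups did not overlap for 5 of the 10 (Ppard, Esr1 and Rara higher in cKO MED1, Rxrb and Nr3c1 lower), where 39.1% of tested genes were likewise apart. The edgeR quasi-likelihood test on the recovered reads called the same 3 genes, and DESeq2 called 5, adding Nr1h3 higher and Nr3c1 lower. When library sex entered the limma fit, 0 of the 10 were called and 228 genes in all, with 6 receptor genes at an unadjusted p under 0.05, against 7 without that term. In that fit the genotypes are compared within sex through 1 male cKO MED1 library. With cKO MED1 replicates 3 and 4 left out, or WT replicate 1 left out, Ppard was the 1 receptor gene called. Judged by Ddx3y, the former sets only female cKO MED1 libraries against male WT libraries, so sex and genotype cannot be told apart there.

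**Figure D1:**
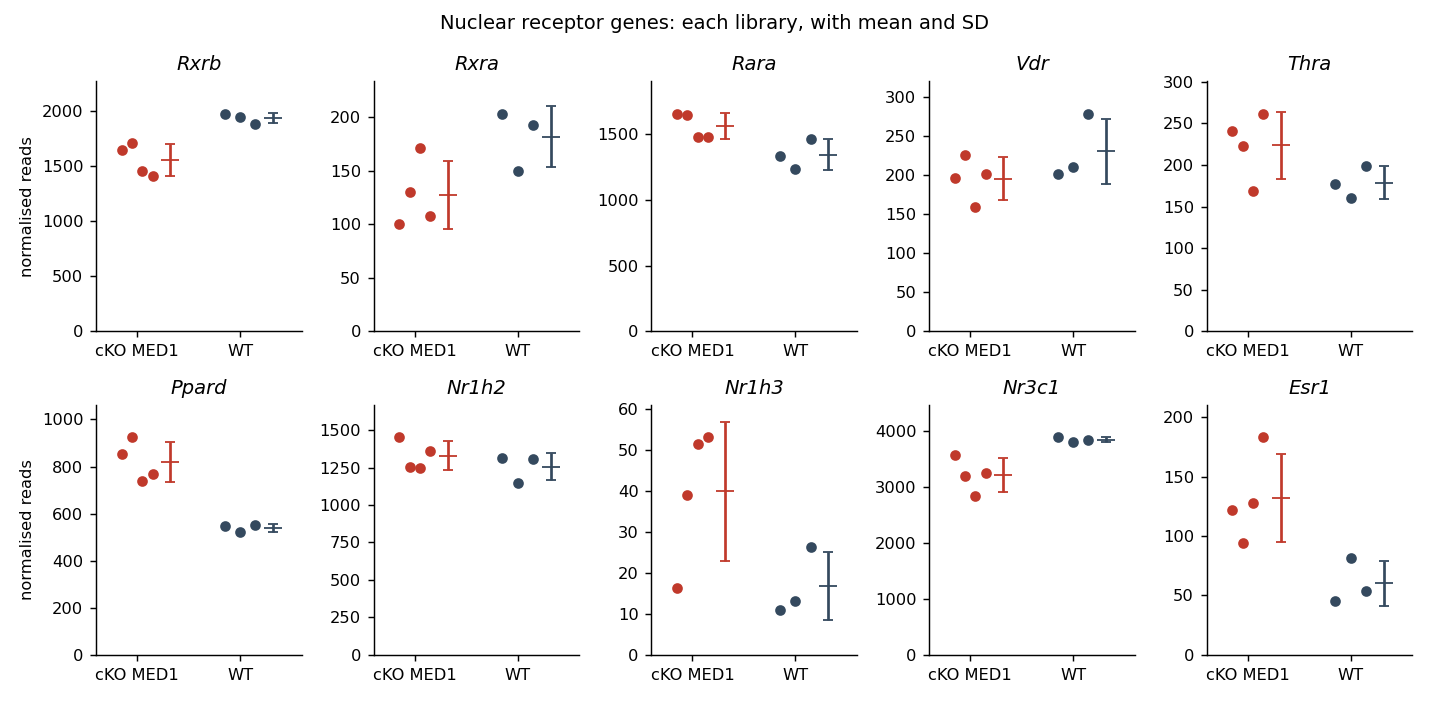
Normalised reads of each receptor gene (vertical axes from 0, a separate scale per gene) in 4 cKO MED1 libraries on the left and 3 WT libraries on the right, with mean and SD beside the points. Ppard and Esr1 lie wholly higher in cKO MED1 and Rxrb wholly lower, while Vdr, Rxra, Thra, Nr1h2 and Nr1h3 overlap.

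Levels between genes were compared per exonic length, as RPKM, which divides reads by exonic length and library size. The 10 genes spanned a wide range in both genotypes. Nr3c1 stood at 8.71 ± 0.825 RPKM in cKO MED1 and 10.4 ± 0.118 RPKM in WT (SD, n = 4 and 3). Nr1h2 at 8.25 and 7.79 RPKM, Rxrb at 8.14 and 10.1 RPKM, and Rara at 7.47 and 6.43 RPKM (means in cKO MED1 and in WT) made up the rest of the upper group. These 4 genes overlapped between neighbours in the order in cKO MED1, whereas in WT Nr3c1 lay apart above Nr1h2, and Rxrb apart above Rara. In WT the lowest value of Rxrb (9.87 RPKM) was also above the highest of Nr1h2 (8.15 RPKM). Ppard followed at 2.27 ± 0.234 RPKM in cKO MED1 and 1.5 ± 0.0466 RPKM in WT, apart from the genes above and below it in both genotypes. Thra at 1.01 and 0.807 RPKM, Vdr at 0.721 and 0.849 RPKM and Rxra at 0.485 and 0.692 RPKM overlapped one another along that order in both genotypes. Nr1h3 at 0.331 and 0.139 RPKM and Esr1 at 0.201 and 0.0917 RPKM were the lowest and overlapped each other, and Rxra lay apart above Nr1h3 in WT but not in cKO MED1.

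The promoters of the 3 called genes are shown because they are the members for which the cultures differed by the test. Each window runs from 250 bases before to 50 bases after a RefSeq start in GRCm38.p6. Such windows were looked at for 8 of the 10 genes, without Nr3c1 and Thra. Capitals mark every match to the GC box GGGCGG and the CCAAT box CCAAT on either strand; the receptor half-site AGGTCA and TATAAA were searched too and had no match in these 3 windows. No 2 marked matches overlap. Among all 32851 windows of this length 35.7% held GGGCGG, 37.4% held CCAAT, 16.3% held AGGTCA and 13.6% held TATAAA. The Ppard window is chr17:28232504-28232803 on the plus strand, the first of 2 Rxrb windows is chr17:34031562-34031861 on the plus strand, and the first of 2 Esr1 windows is chr10:4611739-4612038 on the plus strand.
Ppard: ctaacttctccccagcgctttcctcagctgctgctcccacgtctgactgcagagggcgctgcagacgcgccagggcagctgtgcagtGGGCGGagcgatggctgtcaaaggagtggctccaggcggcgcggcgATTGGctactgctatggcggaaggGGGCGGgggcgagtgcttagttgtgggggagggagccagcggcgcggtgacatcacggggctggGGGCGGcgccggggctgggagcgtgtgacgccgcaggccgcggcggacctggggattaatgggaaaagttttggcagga
Rxrb: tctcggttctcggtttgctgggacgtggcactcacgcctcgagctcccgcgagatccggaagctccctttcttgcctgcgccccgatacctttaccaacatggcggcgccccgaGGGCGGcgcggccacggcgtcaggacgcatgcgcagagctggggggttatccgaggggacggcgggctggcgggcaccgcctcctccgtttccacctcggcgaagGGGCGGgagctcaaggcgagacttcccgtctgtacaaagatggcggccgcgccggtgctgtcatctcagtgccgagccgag
Esr1: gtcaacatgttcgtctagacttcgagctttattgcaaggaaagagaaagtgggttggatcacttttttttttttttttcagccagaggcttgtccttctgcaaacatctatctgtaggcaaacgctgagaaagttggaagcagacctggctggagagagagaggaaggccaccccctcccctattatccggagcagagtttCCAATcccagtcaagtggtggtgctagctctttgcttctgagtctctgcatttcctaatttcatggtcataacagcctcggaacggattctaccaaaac
The Ppard window held 3 GC boxes and 1 CCAAT box and the Rxrb window 2 GC boxes. The Esr1 window held 1 CCAAT box and no GC box. Its GC content was 46.3%, against 68.3% in the Ppard window, 68.7% in the Rxrb window and a median of 52.7% over all windows. The second Esr1 window, not shown, had a GC content of 59.3% and held neither box. The second Rxrb window, not shown, had a GC content of 82% and held 4 GC boxes.

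Of the retinoid X receptors Rxrb fell and Rxra did not pass. Rxrb (ENSMUSG00000039656.17), the more abundant partner, lies on chromosome 17 (34031812 to 34038399, plus strand, GRCm38). It had 1648, 1704, 1454 and 1404 normalised reads in cKO MED1 replicates 1 to 4, against 1973, 1945 and 1883 in WT replicates 1 to 3. All 4 mutant libraries were below all 3 WT libraries, with replicates 3 and 4 the lowest. Rxrb fell to 80.3% of the WT mean (log2 fold change -0.32, SE 0.09, limma's adjusted p = 0.0274). The call ended in 8 of 21 alternatives, among them those without WT replicate 1 or 2, without cKO MED1 replicate 3 or 4, and under a filter of CPM 1 in 3 libraries (adjusted p = 0.0861, 0.0545, 0.0626, 0.0698 and 0.0523).

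Rxra (chromosome 2, 27676440 to 27762957) had 100.3, 129.6, 171 and 108 normalised reads in the cKO MED1 libraries, against 203, 149 and 192 in the WT libraries. Replicate 3 of cKO MED1 lay inside the WT range, so the groups overlapped. The log2 fold change of Rxra was -0.53 (SE 0.20, limma's adjusted p = 0.0618), and it passed in 5 of 21 alternatives, with the authors' size factors among them (-0.66, adjusted p = 0.0218). With sex in the model Rxra stood at -0.07 (limma's adjusted p = 0.868). Per length, Rxrb exceeded Rxra by a ratio of 17.6 ± 4.48 in cKO MED1 and 14.9 ± 2.6 in WT (SD, n = 4 and 3). The summed level of both genes was 9.02, 9.43, 8.27 and 7.77 RPKM in cKO MED1 replicates 1 to 4 and 11.1, 10.8 and 10.6 RPKM in WT replicates 1 to 3, with no overlap. This sum was not tested.

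Rara, Vdr and Thra, the hormone and vitamin receptors that pair with them, gave no call. Rara, a retinoic acid receptor, had 1659, 1648, 1482 and 1477 normalised reads in cKO MED1 replicates 1 to 4 and 1334, 1238 and 1468 in WT replicates 1 to 3. Every mutant library lay above every WT library, but the nearest pair differed by a small margin. The log2 fold change of Rara was 0.22 (SE 0.09, limma's adjusted p = 0.0919), and it was -0.02 when libraries were scaled by total reads. Under the filter of CPM 1 in 3 libraries Rara was called higher (0.33, limma's adjusted p = 0.0138). Rara lies 735 kb and Thra 547 kb from Med1 on chromosome 11 (98927818 to 98974942 and 98740638 to 98769006, plus strand).

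Thra, a thyroid hormone receptor, had 241, 222, 169 and 262 normalised reads in the cKO MED1 libraries, against 178, 159.9 and 199 in the WT libraries (log2 fold change 0.31, SE 0.16, limma's adjusted p = 0.164). The mutant replicate 3 fell inside the WT range, and without it Thra was called higher (0.46, limma's adjusted p = 0.041), while with sex as a covariate its value was -0.08. A stretch of 263 bases, 5.70% of the exonic length of Thra, overlaps the gene of the circadian repressor Nr1d1 on the other strand. Whether counting used strand is not given, so reads there cannot be told apart; Nr1d1 itself averaged 17.1 and 16.7 normalised reads in cKO MED1 and in WT.

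Vdr, the vitamin D receptor (chromosome 15, 97854425 to 97910630, minus strand), had 196, 225, 159 and 201 normalised reads in the cKO MED1 libraries, against 202, 211 and 279 in the WT libraries. The groups overlapped, with WT replicate 3 the highest, at a log2 fold change of -0.23 (SE 0.16, limma's adjusted p = 0.277). Vdr passed in 0 of 21 alternatives, where its log2 fold change ran between -0.51 and -0.11 and the adjusted p between 0.0513 and 0.695.

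Ppard, a receptor for fatty acids that drives their oxidation in many tissues, had the smallest adjusted p of the 10. Its normalised reads were 852, 924, 738 and 769 in cKO MED1 replicates 1 to 4, against 548, 521 and 553 in WT replicates 1 to 3. The WT libraries were close together, and the lowest mutant library stood well above the highest of them. The means were 821 ± 84.3 in cKO MED1 and 541 ± 16.8 in WT (SD, n = 4 and 3), a rise of 0.60 on the log2 scale (SE 0.10, limma's adjusted p = 0.00323). Ppard was called in 19 of 21 alternatives. The exceptions were scaling by total reads (0.35, limma's adjusted p = 0.111), where the median of all tested genes was -0.20, and sex in the model (0.45, limma's adjusted p = 0.159). The gene (ENSMUSG00000002250.16) lies on chromosome 17 from 28232700 to 28301474. Over its 7.51 exonic kb the neuronal and muscle median would give 47.8 reads in cKO MED1 replicate 4, where that median was highest, and with this level subtracted Ppard was still called (0.57, limma's adjusted p = 0.0273).

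**Figure D2:**
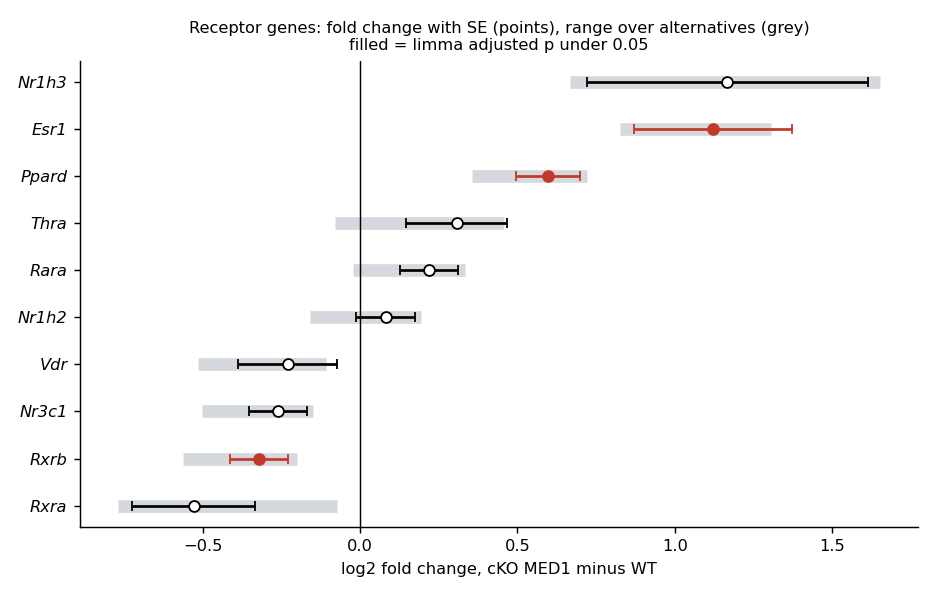
Log2 fold change (horizontal axis, cKO MED1 minus WT) of each receptor gene with its standard error, filled where limma's adjusted p was under 0.05, over a grey band from the lowest to the highest value of the alternatives. Bands of Thra, Rara and Nr1h2 cross 0, and those of Ppard, Esr1, Nr1h3, Vdr, Nr3c1, Rxrb and Rxra do not.

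The oxysterol receptors differed in level far more than between genotypes. Nr1h2, the widely expressed form (chromosome 7, 44549616 to 44553951, minus strand), had 1451, 1254, 1249 and 1359.8 normalised reads in cKO MED1 replicates 1 to 4, against 1312, 1149.8 and 1304 in WT replicates 1 to 3. The groups overlapped, and the log2 fold change of Nr1h2 was 0.08 (SE 0.09, limma's adjusted p = 0.521). That value turned negative in 5 alternatives, among them scaling by total reads (-0.16) and the authors' size factors (-0.05).

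Nr1h3, the form typical of macrophages and liver (chromosome 2, 91184061 to 91202834, minus strand), had 16.3, 39.0, 51.4 and 53.1 normalised reads in the cKO MED1 libraries, against 11.02, 13.1 and 26.3 in the WT libraries. The mutant replicate 1 lay among the WT libraries, and the log2 fold change of 1.17 (SE 0.45) did not pass (limma's adjusted p = 0.0688). The gene rested on 12 to 40 raw reads per library. Without cKO MED1 replicate 1 it was called higher (1.53, limma's adjusted p = 0.0156), as it was without WT replicate 3 (1.47, limma's adjusted p = 0.0411). It was 0.88 without WT replicate 1 and 0.67 when replicates 3 and 4 of cKO MED1 were left out (limma's adjusted p = 0.243 and 0.376). Reads that a gene of its length would hold at the neuronal and muscle median were 3.87, 5.47, 9.79 and 16.0 in cKO MED1 replicates 1 to 4 and 0.958, 3.23 and 2.78 in WT replicates 1 to 3, in the same order across the mutant libraries as Nr1h3 itself. With that level subtracted the log2 fold change of Nr1h3 was 1.04 (limma's adjusted p = 0.201). Macrophage and monocyte markers summed to 570 to 816 reads in cKO MED1 and 437 to 704 in WT. Of 6 tested members 0 were called by limma (1 at an unadjusted p under 0.05), where 28% of all tested genes were called. The median log2 fold change of the 6 was 0.48, and 4 of them lay in the third of genes with the lowest means. Within that list Cd68 averaged 423 reads in cKO MED1 and 333 in WT and Adgre1 90.8 and 114, while Cd14 had at most 7.32 in any library. The part of the macrophage markers in the Nr1h3 values was not tested.

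**Figure D3:**
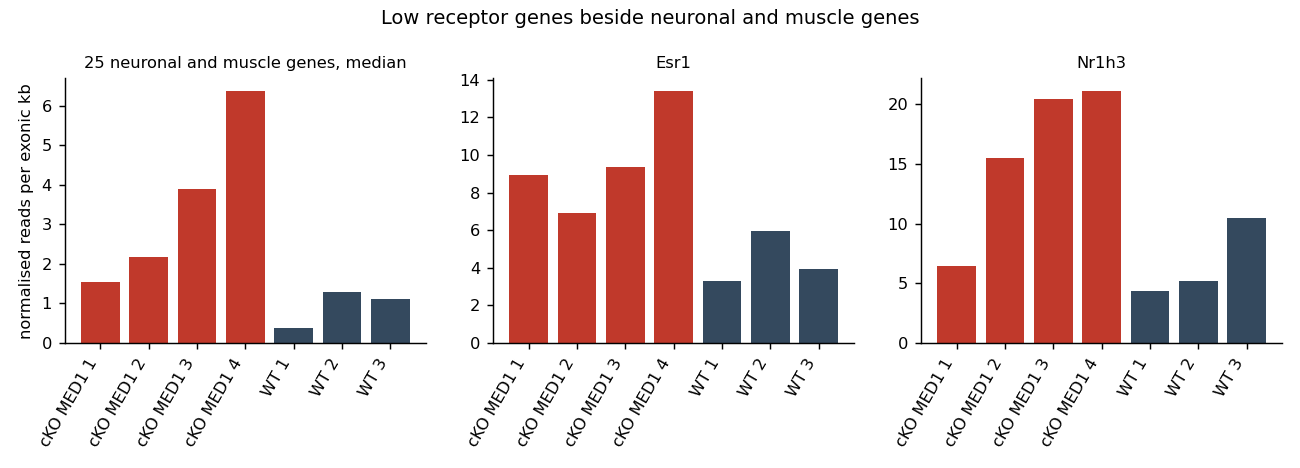
Normalised reads per exonic kb (vertical axes from 0) in each library, cKO MED1 in red on the left and WT in dark blue on the right, for the median of 25 neuronal and muscle genes, for Esr1 and for Nr1h3. In each of the 3 panels the highest bar is cKO MED1 replicate 4 and the lowest is WT replicate 1.

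Of the steroid receptors Esr1 rose and Nr3c1 gave no call. Nr3c1, the glucocorticoid receptor with the highest mean of the 10 per length, had 3573, 3196, 2830.25 and 3248 normalised reads in cKO MED1 replicates 1 to 4, against 3882, 3796 and 3832 in WT replicates 1 to 3. All mutant libraries were below the narrow WT range, and the mean was 83.7% of WT. The log2 fold change of -0.26 (SE 0.09) missed the threshold (limma's adjusted p = 0.053). Nr3c1 passed in 6 of 21 alternatives, which included RLE factors (-0.28, limma's adjusted p = 0.0464) and leaving out replicate 1 of cKO MED1 (-0.33, limma's adjusted p = 0.0178).

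Esr1, the estrogen receptor alpha gene (ENSMUSG00000019768.16, chromosome 10, 4611593 to 5005614), had 122, 94.5, 128 and 183 normalised reads in cKO MED1 replicates 1 to 4, against 45.4, 81.6 and 53.5 in WT replicates 1 to 3. Every mutant library exceeded every WT library, with cKO MED1 replicate 2 and WT replicate 2 nearest to each other. Esr1 rose by 1.12 on the log2 scale (SE 0.25, limma's adjusted p = 0.0107) from a low level, at 66 to 100 raw reads per library. Over the 13.7 exonic kb of Esr1 the neuronal and muscle median would give 21.04, 29.7, 53.2 and 87.0 reads in the cKO MED1 libraries and 5.20, 17.5 and 15.1 in the WT libraries. With that amount subtracted the log2 fold change was 0.83 (limma's adjusted p = 0.0749), and with the smaller level of olfactory and vomeronasal receptor genes subtracted the call remained. The call also ended without WT replicate 1 (0.89, limma's adjusted p = 0.0543) and when replicates 3 and 4 of cKO MED1 were left out (0.88, limma's adjusted p = 0.0661). With sex in the model Esr1 stood at 1.12 (limma's adjusted p = 0.18).

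**Figure D4:**
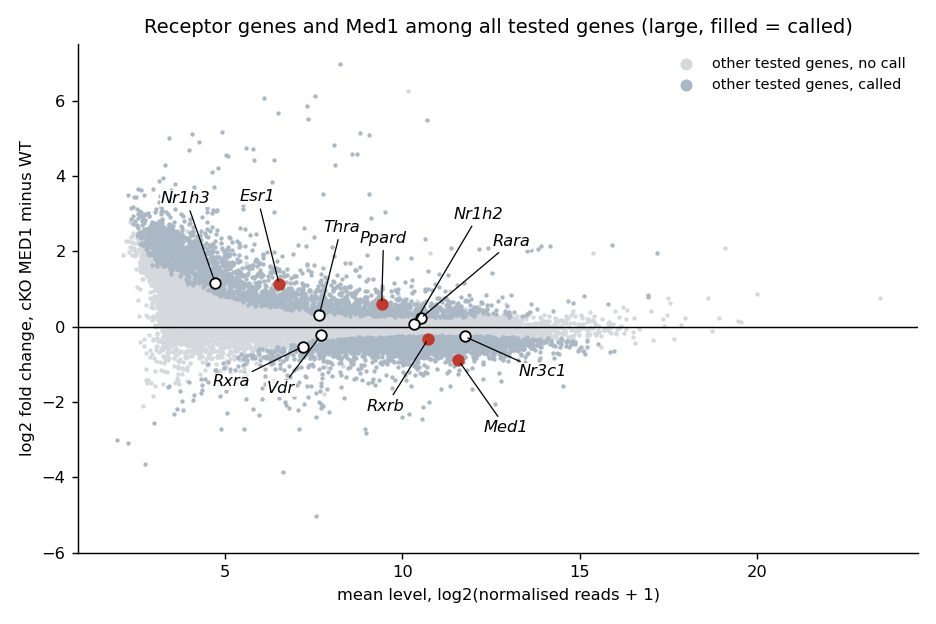
Log2 fold change (vertical axis) against mean log2(normalised reads + 1) (horizontal axis) for 18062 tested genes, called genes darker, with the 10 receptors and Med1 as large labelled points that are filled where called. Nr1h3 and Esr1 have the lowest means and the highest fold changes of the receptors, and Med1 lies below all 10 receptors.

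Genes of the chaperone cycle that holds steroid receptors ready for ligand were lower in cKO MED1. Of 10 such genes, 8 fell and 0 rose, with a median log2 fold change of -0.61, and all 8 were apart between genotypes, as were 39.1% of all tested genes. All 10 belong to the third of genes with the highest means, of which 27.6% were called lower. Hsp90ab1 and Hsp90aa1, which encode the HSP90 chaperone, had 53252 ± 6499 and 17108 ± 1856 normalised reads in cKO MED1, against 83184 ± 8110 and 28101 ± 4280 in WT (log2 fold changes -0.65 and -0.71, limma's adjusted p = 0.0123 and 0.00467). Ptges3, which encodes the p23 cochaperone, fell by 0.62 on the log2 scale, and the receptor immunophilin gene Fkbp4 fell by 0.75 (limma's adjusted p = 0.00399 and 0.00449). Stip1, which links HSP70 to HSP90, fell by 0.59 (limma's adjusted p = 0.0048). Fkbp5, an immunophilin that dampens glucocorticoid receptor affinity, stood at 1173 and 1136 normalised reads in cKO MED1 and in WT (0.06, limma's adjusted p = 0.713). Several of these genes have near-identical processed pseudogenes, and how reads were shared between copies is not given. The count of 8 became 6 without cKO MED1 replicates 3 and 4, 4 without WT replicate 1 and 0 with sex as a covariate, where 7 had an unadjusted p under 0.05 in limma. These proteins serve many clients besides receptors.

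The rest of the nuclear receptor family was mostly scarce: 23 of 39 other members passed the filter on low reads, 6 rose and 0 fell. Members that passed only through the mutant libraries had to be higher there, so the count is a description. Among the 6 that rose were Nr2e3 (log2 fold change 2.84), Esrrg (2.06), Nr1i2 (1.93), Nr3c2 (mineralocorticoid receptor, 1.45) and Rarg (1.28), at limma's adjusted p between 0.0125 and 0.0453. The means of these 5 were 18.5 to 61.7 normalised reads in cKO MED1 and 3.25 to 21.8 in WT. Of the 5, Nr2e3, Esrrg and Nr1i2 passed the filter on low reads through the mutant libraries, so their adjusted p is a description too. Rarg, a retinoic acid receptor, had 35.2, 51.7, 63.2 and 71.4 normalised reads in cKO MED1 replicates 1 to 4 and 17.9, 19.6 and 27.9 in WT replicates 1 to 3. Among the third of genes with the lowest means 22% were called higher, and the highest library was cKO MED1 replicate 4 for all 5, as for the neuronal and muscle median. With that median subtracted per exonic kb 3 of the 39 were called. The count was 2 without cKO MED1 replicates 3 and 4, 1 without WT replicate 1, 10 with DESeq2 and 0 by limma with sex in the model, where 9 had an unadjusted p under 0.05. Among better measured members, Nr2c2 (2927 and 3401 normalised reads in cKO MED1 and in WT), Esrra (624 and 668) and Nr4a1, an early response receptor (129.96 and 141), gave no call.

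Coregulators were called about as often as genes at large. Of 18 coactivator genes 3 fell and 1 rose (median log2 fold change -0.09), and of 10 corepressor genes 2 fell and 1 rose (median -0.10), where 13.4% of all tested genes rose and 14.6% fell. Pprc1 and Ppargc1a, members of the PGC-1 family, went opposite ways: Pprc1 fell by 0.51 on the log2 scale (1211 ± 118 in cKO MED1, 1730 ± 163 in WT normalised reads, limma's adjusted p = 0.00671), and Ppargc1a rose by 0.74 at a low level (56.8 ± 12.7 in cKO MED1, 33.2 ± 3.74 in WT, limma's adjusted p = 0.0386). Ncoa5 fell by 0.48 and the arginine methyltransferase gene Carm1 by 0.33 (limma's adjusted p = 0.00791 and 0.0364). Among corepressors, Ncor1 stood at 9027 and 8513 normalised reads in cKO MED1 and in WT (0.08, limma's adjusted p = 0.554). Gps2, a subunit of the repressor complex that holds Ncor1, fell by 0.45, and the histone demethylase gene Kdm1a fell by 0.30 (limma's adjusted p = 0.0229 and 0.0303).

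Enzymes and carriers of receptor ligands were largely at low levels. Of 12 retinoid genes 5 were tested, 1 fell and 1 rose, where 13.4% of all tested genes rose and 14.6% fell. Dhrs3, a retinaldehyde reductase that lowers retinoic acid synthesis, had 1580, 2103, 1274 and 1290.2 normalised reads in the cKO MED1 libraries and 2344, 2117 and 2326 in the WT libraries (log2 fold change -0.56, SE 0.15, limma's adjusted p = 0.0229). Cyp26b1, which degrades retinoic acid, rose by 2.48 (limma's adjusted p = 0.0314), with 8.13 to 53.1 normalised reads in cKO MED1 libraries against 0.688 to 7.19 in WT libraries. It passed the filter on low reads through the mutant libraries, and they stood in the order of the neuronal and muscle median. Of 15 genes for vitamin D, thyroid hormone, corticosteroid, oxysterol and fatty acid handling 5 were tested. Fabp5, a carrier that delivers fatty acids to Ppard, fell by 0.88 (817 ± 67.1 in cKO MED1, 1510 ± 175 in WT normalised reads, limma's adjusted p = 0.000416). The sterol hydroxylase gene Cyp27a1 rose by 1.54 at a mean of 33.8 reads in cKO MED1 and 9.84 in WT (limma's adjusted p = 0.0317). Cyp27a1 passed the filter on low reads only with the mutant libraries counted.

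Of 48 genes known as receptor targets 36 were tested, 7 rose and 7 fell, with a median log2 fold change of 0.08, where 13.4% of all tested genes rose and 14.6% fell. All 10 LXR targets were tested, 3 fell and 1 rose. Pltp, which encodes a phospholipid transfer protein, fell by 0.99 (566 ± 36.0 in cKO MED1, 1139.9 ± 264 in WT normalised reads, limma's adjusted p = 0.00101). The lipid synthesis genes Scd1 and Fasn fell by 0.55 and 0.49 (limma's adjusted p = 0.00785 and 0.0123), and Apoe rose by 0.97 (limma's adjusted p = 0.0227). The cholesterol exporter genes Abca1 and Abcg1 had log2 fold changes of -0.25 and -0.24 and did not pass (limma's adjusted p = 0.467 and 0.057). Among 5 tested Ppard targets, Cpt1a, the entry enzyme of mitochondrial fatty acid oxidation, fell by 0.44 and Acadvl by 0.32 (limma's adjusted p = 0.0165 and 0.0247), while Ppard itself was higher.

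Of 10 glucocorticoid receptor targets 2 rose and 1 fell, where 13.4% of all tested genes rose and 14.6% fell. Tsc22d3, which encodes the glucocorticoid-induced leucine zipper, had 629 ± 62.1 normalised reads in cKO MED1 and 845 ± 44.3 in WT (log2 fold change -0.43, limma's adjusted p = 0.013). Nfkbia, also an NF-kB target, rose by 0.48 and Zbtb16 by 1.84 from few reads (limma's adjusted p = 0.00393 and 0.0269). Among 5 tested retinoic acid targets, the transglutaminase gene Tgm2 rose by 1.35 (limma's adjusted p = 0.026) beside Dhrs3 and Cyp26b1, and WT replicate 3 at 173 reads overlapped the mutant range of 166 to 229. Trpv6 of 2 tested vitamin D targets rose by 2.26 and Hr of 3 tested thyroid hormone targets by 1.32, at means of 18.01 and 27.3 normalised reads in cKO MED1 and 2.62 and 9.68 in WT (limma's adjusted p = 0.0364 and 0.0335). Like Cyp26b1, the genes Zbtb16, Trpv6 and Hr passed the filter on low reads through the mutant libraries. Of 2 tested estrogen targets 0 passed, with both at an unadjusted p under 0.05. Ctsd stood at 2889 and 3326 normalised reads in cKO MED1 and in WT (log2 fold change -0.21, limma's adjusted p = 0.095). Greb1 stood at 30.6 and 7.52 (1.61, limma's adjusted p = 0.053), with all mutant libraries above all WT libraries and replicate 4 of cKO MED1 the highest. Greb1 too passed the filter on low reads through the mutant libraries.

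**Figure D5:**
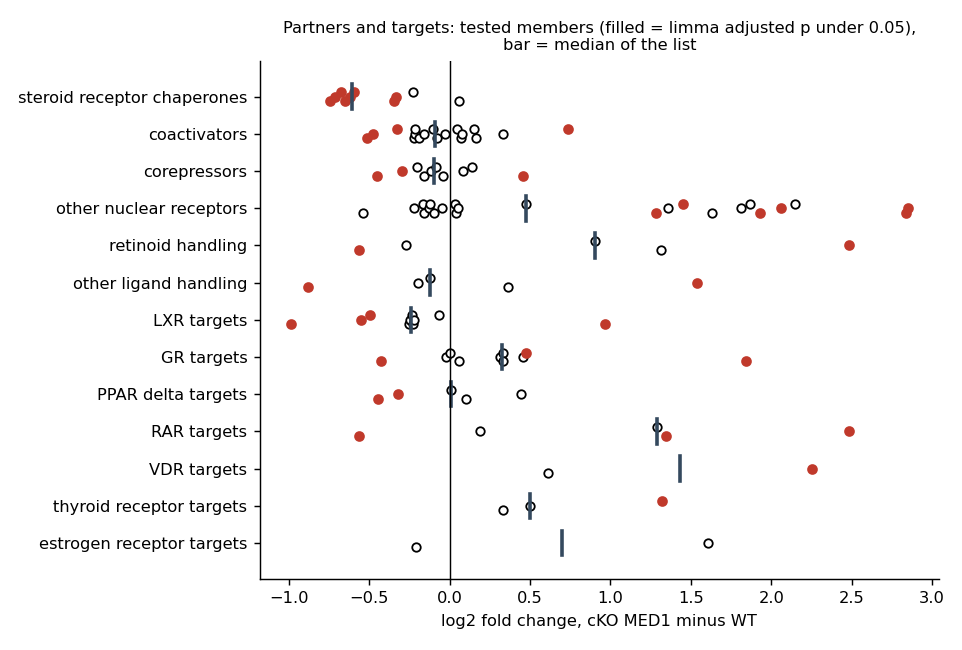
Log2 fold change (horizontal axis, cKO MED1 minus WT) of every tested member of the partner and target lists, 1 row per list, filled where limma's adjusted p was under 0.05, with the list median as a bar. Chaperone genes lie left of 0 apart from Fkbp5, and the widest spread to the right is that of the other nuclear receptors.

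Likeness of profile was measured as the root mean square difference of centred log2 values over the 7 libraries, among 13493 named genes, which all share the genotype split. Closest to Ppard were Il5ra, the interleukin 5 receptor alpha chain gene (0.0318), and Rassf4 (0.0517). Closest to Rxrb were Rpusd4 (0.018) and Parvg (0.0204), and closest to Esr1 were Tead3 (0.112) and Osbpl10 (0.148). For Nr3c1 they were Acad8 (0.0297) and Utp14b (0.031), for Rara Man1a (0.03), and for Nr1h2 Usp33 (0.0218) and Helz (0.0257). The low genes had looser neighbours: Egr2 and Prkca for Vdr, Zfp428 and Pradc1 for Rxra, Evi5l and Hypk for Thra, and Mlip and Pcolce2 for Nr1h3, at differences of 0.0589 to 0.196.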

How the data were processed

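RNA from 7 spleen B cell cultures, 4 labelled cKO MED1 and 3 labelled WT, was made into stranded, rRNA-depleted libraries and sequenced as 150-base pairs, per the labels' protocols. The submitters' processing notes name, beside GRCm38, DESeq2 3.6 with R 3.4, Subread 1.5.0-p3, STAR 2.4.0a and featureCounts. The authors deposited 1 table of signal values, which are read counts divided by a size factor per library; at a tolerance of 1e-06 whole reads were recovered for 100% of values. The sources used here do not say how multimapping reads and strand were treated.

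Recovered reads, without the spike-in (at most 0.000382669% of a library), were scaled with TMM factors (edgeR 4.0.16), filtered with filterByExpr, and tested as log2(normalised reads + 1) with limma 3.58.1 (R 4.3.3, mean-variance trend, two-sided, Benjamini-Hochberg adjusted p under 0.05 over 18062 genes). RPKM used exonic lengths of GENCODE M21. The recovered reads were also tested as counts with edgeR's quasi-likelihood test and DESeq2 1.42.0, which called 5340 and 6137 genes. The methods were tested on simulated data. Other alternatives were scaling, filter, pseudocount, replicate block, left-out libraries, sex as a covariate and subtraction of background.

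The receptors and all lists were chosen with earlier results of these data known. The genes named are every receptor, each called member of the other nuclear receptors, up to 4 called members per remaining list by adjusted p, and the 2 nearest profiles per receptor. Hsp90ab1 and the members named without a call were chosen after their values were seen. Some genes that this rule names are not reported here.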

Additional observations from a re-analysis of the deposited data

Results flagged for a closer look

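Of 48 named genes looked at for a cKO MED1 library far from the other 3, 4 were picked out, where chance picks out about 1 in 20. The measure is the gap to the nearest library over the whole range, set against Dixon's critical value for 4 libraries. For the immunophilin gene Fkbp4 it was 0.966, with cKO MED1 replicate 4 low at 2072 normalised reads against 2907 to 2936 in the others. For Zbtb16 it was 0.914 and for Cyp27a1 0.849, with cKO MED1 replicate 4 high at 58.6 and 67.7 normalised reads. For Pltp it was 0.857, with cKO MED1 replicate 2 high at 619.9. None of the 10 receptors was picked out.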

How the results depend on the processing

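Med1 was called lower in all 21 alternatives (-1.13 to -0.78). The number of genes called, 5065, was 2145 without cKO MED1 replicates 3 and 4, 228 with sex as a covariate and 2605 with the neuronal and muscle median subtracted, an alternative chosen after seeing the data, and 1556 to 6126 when 1 library was left out. It was lowest without WT replicate 1 and 2812 without cKO MED1 replicate 4. The number of receptors called, 3, was 5 with total reads, the authors' size factors, no filter on low reads or DESeq2, 1 without cKO MED1 replicates 3 and 4, 0 with sex as a covariate, and 1 to 5 when 1 library was left out. The log2 fold change changed sign for Rara with total reads (-0.0225), for Thra with sex as a covariate (-0.0788), and for Nr1h2 with total reads (-0.16), the authors' size factors (-0.0512), no filter (-0.0749), sex as a covariate (-0.0052) and without WT replicate 2, where leaving out 1 library gave Nr1h2 a range of -0.0372 to 0.136. The cause was not tested. The filter of CPM 1 in 3 libraries removed Nr1h3. The chaperone and other nuclear receptor counts were put through these alternatives after seeing the data: 8 chaperones became 0 to 9 and 6 other nuclear receptors became 0 to 10. With the replicate number as a block 3741 genes and 2 receptors were called (Esr1 and Ppard). Same-numbered libraries correlated in their deviations at 0.51, -0.23 and 0.16, WT replicates 2 and 3 matched cKO MED1 replicate 4 best, and the numbers were not taken as pairs. Depth limits Nr1h3 and Esr1 most, at 12 to 40 and 66 to 100 raw reads per library.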

Other observations

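Xist, the RNA of the inactive X chromosome, had 40414, 36381, 48.7 and 41073 normalised reads in cKO MED1 replicates 1 to 4 and 59.2, 1241 and 11.2 in WT replicates 1 to 3. WT replicate 2 thus stood apart from the other WT libraries while its Ddx3y reads (4496) were at the level of theirs. Which cells carried those reads was not tested.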
